A study of Mus musculus with 6 samples.

Results

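Transcripts of 9 megakaryocyte and platelet genes were measured in hematopoietic stem and progenitor cells of irradiated Tespa1+/+ and Tespa1-/- mice. The genes were Pf4, Itga2b, Gp9, Gp1bb, Gp6, Gp5, Vwf, Selp and Treml1, and were taken by their symbols from a deposited table of 55487 genes. The set was proposed with earlier results of these data known. The cells were LSKs, bone marrow cells without lineage markers that carry Sca-1 and c-Kit. They came from mice on a C57BL/6 background, aged 8 to 10 weeks per the study's methods, and were taken 13 days after 5 Gy of whole-body irradiation, which both groups received. The Tespa1-/- mice carried the constitutive Tespa1tm1Smoc allele in all tissues, and the Tespa1+/+ mice were labelled as littermates. There were 3 libraries of each genotype. No label stated whether a library was 1 mouse or a pool, so the p-values measure only the spread between these libraries.

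Megakaryocytes are the bone marrow cells that release platelets. Platelets adhere to damaged vessels through the glycoprotein Ib-IX-V complex, which binds von Willebrand factor, and through the collagen receptor glycoprotein VI. They aggregate through the integrin αIIbβ3, and their α-granules store von Willebrand factor, P-selectin and chemokines. Some of these genes are also transcribed in a subset of stem cells with a bias towards platelet output, and Vwf and Selp are also expressed by endothelial cells. GATA1 and the ETS factor FLI1 are transcription factors known to act on many megakaryocyte promoters.

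The total count was 12856630 to 30576981 per library, and the mitochondrial genes took 2.68% to 3.01% of it. Levels are given as CPM, the count divided by the library total and put on one scale, with TMM factors that correct each total for differences in composition. A gene was called when edgeR's quasi-likelihood test gave an adjusted p (Benjamini-Hochberg, over all 15332 genes that passed the filter on low counts) under 0.05 together with a fold over 1.5. Fold changes are Tespa1-/- over Tespa1+/+ on the log2 scale, with a standard error (SE). Of all genes tested, 2951 (19.2%) were lower and 2148 (14.0%) were higher in Tespa1-/- LSKs. Scaling by library totals alone moved that split to 3516 lower and 1491 higher and the median change over all genes by -0.10, without changing which of the 9 genes were called. Tespa1 itself was at 34.5, 32.7 and 36.0 CPM in the Tespa1+/+ libraries and at 15.3, 14.3 and 14.2 CPM in the Tespa1-/- libraries. Its log2 fold change was -1.23 (SE 0.07, adjusted p = 7.001e-06 by edgeR), and transcript remained at a reduced level in every library of the knockout.

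Of the 9 genes, 8 passed the filter on low counts and 1, Gp6, had no read in any library. Vwf, Gp5, Gp1bb and Selp were called lower in Tespa1-/- LSKs, and 0 of the 9 were called higher, against the 19.2% and 14.0% of all tested genes. At an unadjusted p under 0.05, 6 of the genes were lower and 0 higher, beside 33.6% and 33.3% of all tested genes. With DESeq2 3 were called lower and 0 higher, beside 16.8% and 12.6%. The fitted change was below 0 for each of the 8 tested genes, with a median of -0.70 beside -0.00034 over all tested genes, 50.0% of which were below 0. In 6 of them every Tespa1-/- library lay below every Tespa1+/+ library, and in 0 above. Over all tested genes the groups were apart in these directions in 34.6% and 34.5% of cases. Libraries of sorted cells cannot tell fewer cells of a type from less RNA per cell.

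**Figure D1:**
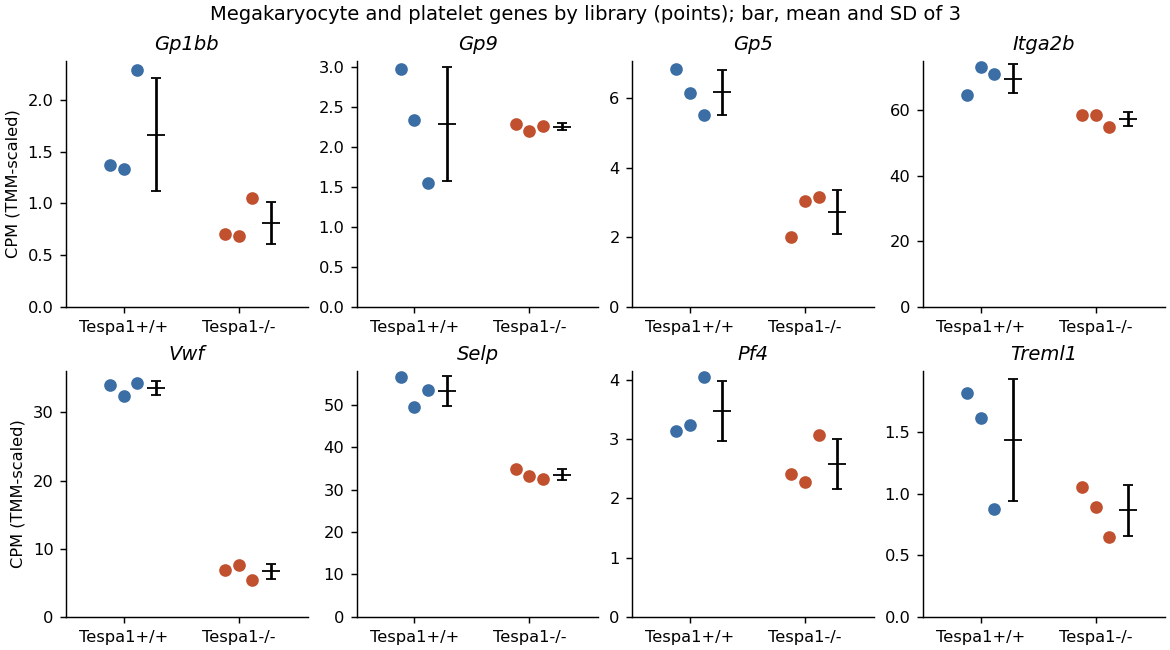
Level of the 8 detected genes in each library, in CPM on axes that start at 0. Blue points are the 3 Tespa1+/+ libraries, red points the 3 Tespa1-/- libraries, and the bars the mean and SD. The groups are far apart for Vwf (33.6 against 6.69 CPM) and overlap for Gp9 and Treml1.

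The sequences before the transcription starts are shown for 4 genes, Gp5 and Selp, which were called lower, and Gp9 and Pf4, which were not, because the genes were compared as a set that megakaryocyte factors are known to act on. RefSeq windows (build GRCm38.p6) were matched for Pf4, Itga2b, Gp9, Gp1bb, Gp6, Gp5, Selp and Treml1. The 250 bases before the start were searched on both strands for GATA motifs (AGATAA or TGATAA, and the like ending in G, AGATAG or TGATAG) and ETS motifs (AGGAAG or CGGAAG), whose letters do not overlap between the kinds in these windows. Each sequence is printed 5′ to 3′ on the strand of its gene, with motif matches in capitals, so that a match on the other strand reads as its reverse complement (TTATCT for GATA and CTTCCT for ETS).
Gp5, chr16:30310782-30311031, minus strand: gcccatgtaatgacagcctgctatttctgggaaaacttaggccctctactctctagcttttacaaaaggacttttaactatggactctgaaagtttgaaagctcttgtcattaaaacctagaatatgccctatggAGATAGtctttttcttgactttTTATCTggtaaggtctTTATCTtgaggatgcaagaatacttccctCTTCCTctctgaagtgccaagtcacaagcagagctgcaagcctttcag
Selp, chr1:164115014-164115263, plus strand: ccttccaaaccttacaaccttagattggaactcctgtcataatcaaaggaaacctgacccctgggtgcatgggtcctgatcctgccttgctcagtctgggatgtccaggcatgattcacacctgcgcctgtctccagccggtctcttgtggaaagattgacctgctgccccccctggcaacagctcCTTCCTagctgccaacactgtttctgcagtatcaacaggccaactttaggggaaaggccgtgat
Gp9, chr6:87777820-87778069, plus strand: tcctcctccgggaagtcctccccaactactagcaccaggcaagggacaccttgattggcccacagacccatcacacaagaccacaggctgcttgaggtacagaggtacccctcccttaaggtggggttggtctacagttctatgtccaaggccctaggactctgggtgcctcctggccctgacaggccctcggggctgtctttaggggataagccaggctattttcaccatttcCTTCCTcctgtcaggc
Pf4, chr5:90772185-90772434, plus strand: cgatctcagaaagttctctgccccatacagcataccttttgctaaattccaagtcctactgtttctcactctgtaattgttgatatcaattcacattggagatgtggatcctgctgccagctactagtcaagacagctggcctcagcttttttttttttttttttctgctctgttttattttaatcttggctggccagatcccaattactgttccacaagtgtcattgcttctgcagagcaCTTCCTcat

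The Gp5 window held 3 GATA matches, which began 115, 93 and 77 bases before the start, and 1 ETS match that began 48 bases before it. Gp9 and Pf4 each had 1 ETS match close to the start, at 16 and 9 bases before it, and Selp had 1 at 64 bases. None of these 3 windows held a GATA match of these letters. Of the 8 windows, 3 held a GATA match (Gp1bb, Gp6 and Gp5), 6 an ETS match and 2 both. The Itga2b window overlaps annotated exon of Itga2b itself, and the Gp1bb window overlaps exon of Septin5. Among all 32851 windows of that length, 26.5% held a GATA match, 39.2% an ETS match and 9.21% both. The matches are descriptions of the letters only, and were found both in genes that were called lower and in genes that were not.

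The glycoprotein Ib-IX-V complex is the platelet receptor for von Willebrand factor, and its subunits were at low levels. Gp5, which encodes glycoprotein V, lies at chr16:30307685-30310779 on the minus strand (positions of genes are on GRCm38). Its level was 6.83, 6.14 and 5.53 CPM in Tespa1+/+ LSKs (6.17 ± 0.648, SD, n = 3). In Tespa1-/- LSKs it was 2.0, 3.03 and 3.15 CPM (2.72 ± 0.633, SD, n = 3). The groups did not overlap, and Gp5 fell by 1.20 on the log2 scale (SE 0.19, 95% confidence interval -1.64 to -0.76, adjusted p = 0.001041 by edgeR).

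Gp9 encodes glycoprotein IX and lies at chr6:87778072-87779768 on the plus strand. It was at 2.97, 2.34 and 1.55 CPM in Tespa1+/+ LSKs and at 2.29, 2.20 and 2.26 CPM in Tespa1-/- LSKs. The Tespa1-/- values lay inside the wider Tespa1+/+ range. The log2 fold change was -0.04 with a 95% confidence interval of -0.59 to 0.51 (adjusted p = 0.8919 by edgeR), so a change of up to about 0.59 lower or 0.51 higher could not be told apart from none. Without Tespa1+/+ replicate 1 the value turned to 0.16 (adjusted p = 0.6667 by edgeR).

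Gp1bb encodes the glycoprotein Ib β-chain, a single-exon gene at chr16:18620317-18622403 on the minus strand. Its counts were 25, 42 and 34 in the Tespa1+/+ libraries against 12, 10 and 13 in those of Tespa1-/-, or 1.67 ± 0.543 and 0.814 ± 0.203 CPM (SD, n = 3 each). The log2 fold change was -1.01 (SE 0.32, adjusted p = 0.02599 by edgeR). Of its 2087 bases, 1902 are also exon of Septin5 (listed as Sept5 in the annotation) and 867 exon of Gm49601, both on the same strand, so that reads of these genes can be split between them. The Septin5 counts were 4, 5 and 7 in the Tespa1+/+ libraries against 18, 13 and 2 in those of Tespa1-/-, and those of Gm49601 were 8, 0 and 2 and then 5, 6 and 10. With the counts of the 3 genes added together the locus was at 2.04, 1.49 and 2.90 CPM in Tespa1+/+ and 2.055, 1.997 and 2.016 CPM in Tespa1-/- LSKs. The difference was then -0.03 (95% confidence interval -0.64 to 0.59, adjusted p = 0.9385 by edgeR), in a comparison added after the data were seen. The call of Gp1bb was also lost with DESeq2 (adjusted p = 0.08113) and without Tespa1+/+ replicate 3, Tespa1-/- replicate 1 or Tespa1-/- replicate 2 (edgeR adjusted p = 0.05567, 0.08648 and 0.08201).

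Gp1ba, the α-chain that holds the von Willebrand factor binding site, is not one of the 9 genes but completes the complex. It was at 1.71, 1.93 and 2.70 CPM in Tespa1+/+ and at 0.646, 0.827 and 1.37 CPM in Tespa1-/- LSKs. It fell by 1.17 on the log2 scale (SE 0.31, adjusted p = 0.01378 by edgeR). Of the 4 genes of the complex, 3 were therefore called lower, Gp1bb with the uncertainty above, and Gp9 did not pass the test.

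Itga2b encodes CD41, the αIIb chain of the fibrinogen receptor, which early hematopoietic progenitors also carry. It lies at chr11:102453297-102470122 on the minus strand. It was at 64.6, 73.1 and 70.9 CPM in Tespa1+/+ LSKs and at 58.5, 58.4 and 54.8 CPM in Tespa1-/- LSKs. The groups did not overlap, but the difference was small, with a log2 fold change of -0.28 (SE 0.06, 95% confidence interval -0.42 to -0.14, adjusted p = 0.004514 by edgeR), a 1.22-fold difference that did not reach the fold of 1.5. Its partner Itgb3, the β3 chain, fell from 26.7 ± 1.91 to 17.4 ± 2.46 CPM (SD, n = 3 each), by 0.62 on the log2 scale (SE 0.11, adjusted p = 0.002413 by edgeR). The intervals of the 2 chains, -0.42 to -0.14 and -0.89 to -0.35, overlapped, and the difference between them was not tested.

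Gp6 encodes glycoprotein VI, which signals collagen contact in platelets, and lies at chr7:4363965-4397744 on the minus strand. Its count was 0 in each of the 6 libraries. A count of 0 allows up to 3 counts, which is 0.0981 to 0.233 CPM on the library totals without TMM scaling, so Gp6 was not detectable at this depth in either group. Fcer1g, the Fc receptor γ-chain that glycoprotein VI and several myeloid receptors signal through, was at 36.4 ± 1.05 CPM in Tespa1+/+ and 46.6 ± 3.42 CPM in Tespa1-/- LSKs (SD, n = 3 each). Its log2 fold change of 0.35 (SE 0.07, adjusted p = 0.00246 by edgeR) did not reach the fold of 1.5.

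Vwf, which encodes von Willebrand factor, showed the largest change among the 8 tested genes. It lies at chr6:125546774-125686679 on the plus strand. Its counts were 619, 1024 and 508 in the Tespa1+/+ libraries against 118, 111 and 68 in those of Tespa1-/-. These are 34.1, 32.4 and 34.3 CPM and 6.93, 7.65 and 5.48 CPM. Within each genotype the libraries were close together, and between them the level fell 4.99-fold, by 2.32 on the log2 scale (SE 0.12, 95% confidence interval -2.59 to -2.05, adjusted p = 4.563e-06 by edgeR). That interval lay below those of the other 7 genes.

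Selp encodes P-selectin, the granule membrane protein through which activated platelets and endothelium bind leukocytes. It lies at chr1:164115264-164150026 on the plus strand. It was at 56.5, 49.5 and 53.4 CPM in Tespa1+/+ LSKs and at 34.9, 33.3 and 32.4 CPM in Tespa1-/- LSKs, with no overlap. It fell by 0.66 on the log2 scale (SE 0.07, 95% confidence interval -0.82 to -0.51, adjusted p = 1.04e-04 by edgeR). The interval reaches past the fold of 1.5, and a test against that fold in place of 0 (edgeR's glmTreat) gave an adjusted p of 0.1878. Its exons share 186 bases with Gm16587 and 438 bases with Gm16548 on the opposite strand, which had counts of at most 9 in any library.

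Most markers on a list of endothelial genes were also lower, as were most LSK markers and most tested platelet receptors (below). Of 15 endothelial markers, 13 were tested, 11 were called lower and 0 higher, beside 19.2% and 14.0% of all tested genes. Pecam1 at -0.57 and Egfl7 at -0.51 on the log2 scale were not called. The summed level of the markers was 313 to 328 CPM in Tespa1+/+ and 168 to 181 CPM in Tespa1-/- libraries. Most of it came from Pecam1 (mean 107.6 and 72.7 CPM), Eng (76.0 and 38.1 CPM) and Egfl7 (46.5 and 32.5 CPM). Stab2, a scavenger receptor of sinusoidal endothelium, had counts of 102, 198 and 83 against 0, 2 and 3. Kdr, a receptor for vascular endothelial growth factor, had counts of 46, 62 and 28 against 3, 0 and 0, and Cldn5, a tight junction protein, 16, 38 and 14 against 1, 1 and 0. Cdh5, which encodes VE-cadherin, was at 2.07 ± 0.571 and 0.475 ± 0.0580 CPM (SD, n = 3 each). Sele was below the filter, with 23 counts at most in any library, and Lyve1 had no read. Several genes on this list, among them Tek, Tie1, Eng and Esam, are also expressed by stem cells. The share of the summed level that came from endothelial cells was not tested. The part that endothelial RNA had in the change of Vwf and Selp was not tested.

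Pf4 encodes platelet factor 4, a chemokine of the α-granule, and lies at chr5:90772435-90773383 on the plus strand. It was at 3.14, 3.23 and 4.05 CPM in Tespa1+/+ LSKs and at 2.41, 2.27 and 3.06 CPM in Tespa1-/- LSKs. The groups were separated by a narrow gap. The log2 fold change was -0.42 (SE 0.17, 95% confidence interval -0.83 to -0.01, adjusted p = 0.06814 by edgeR) and did not pass the test. Ppbp, the neighbouring chemokine gene that encodes pro-platelet basic protein, had 5, 5 and 3 counts in Tespa1+/+ LSKs against 0, 0 and 0 in Tespa1-/- LSKs, too few to be tested.

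Treml1 encodes TLT-1, an α-granule receptor found on megakaryocytes and platelets, and lies at chr17:48359916-48367176 on the plus strand. It was at 1.82, 1.62 and 0.877 CPM in Tespa1+/+ and at 1.06, 0.895 and 0.645 CPM in Tespa1-/- LSKs. Tespa1+/+ replicate 3 lay among the Tespa1-/- libraries. The log2 fold change was -0.74 (SE 0.32, 95% confidence interval -1.50 to 0.03, adjusted p = 0.08449 by edgeR), and without that library it was -0.94 (adjusted p = 0.02129 by edgeR).

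**Figure D2:**
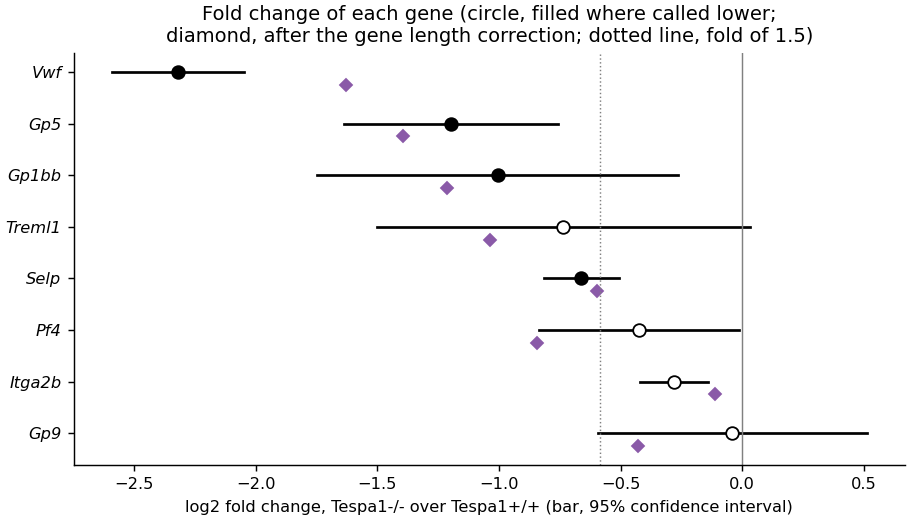
Log2 fold change of Tespa1-/- over Tespa1+/+ for the 8 tested genes (circles) with 95% confidence intervals, filled where the gene was called lower. Diamonds give the value after the gene length correction, which moves Vwf from -2.32 to -1.63 and Pf4 from -0.42 to -0.84.

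The 9 genes together took 170 to 173 CPM in Tespa1+/+ and 103 to 109 CPM in Tespa1-/- libraries. Itga2b, Selp and Vwf made up 90.1% to 92.2% of that sum in every library. Itga2b made up 40.6% ± 2.71 of the sum in Tespa1+/+ and 53.6% ± 0.333 in Tespa1-/- LSKs (SD, n = 3 each), and Vwf 19.6% ± 0.431 and 6.25% ± 0.865. These shares are given without a test.

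Per kilobase of exon, the order of the levels in Tespa1+/+ LSKs was Itga2b, Selp, Pf4, Gp5, Gp9, Vwf, Treml1 and Gp1bb. Itga2b was at 12.8 ± 0.804 and Selp at 12.04 ± 0.799 CPM per kilobase (SD, n = 3), which did not differ beyond their spread. Pf4 followed at 4.82 ± 0.694, and Gp5 (2.81 ± 0.295), Gp9 (2.60 ± 0.809) and Vwf (2.09 ± 0.0630) lay close together. In Tespa1-/- LSKs Itga2b at 10.5 ± 0.393 stood above Selp at 7.60 ± 0.290, Gp9 at 2.55 ± 0.0491 stood above Gp5 at 1.24 ± 0.288, and Vwf at 0.416 ± 0.0685 lay near Gp1bb at 0.390 ± 0.0974, all in CPM per kilobase (SD, n = 3). The order rests on the length used. In the deposited FPKM, which divide by longer lengths for most of these genes, Selp (8.98) stood just above Itga2b (8.86) and Pf4 (2.64) below Gp5 (2.90) and Gp9 (2.69) in Tespa1+/+ LSKs, as group means.

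Fold changes over the whole table moved with gene length. When the tested genes were cut into 10 bins of exon length, the median change on the log2 scale went from 0.54 in the bin of shortest genes to -0.56 in that of the longest. Pf4, with 721 bases, was in the shortest bin, and Vwf, with 16064 bases, in the longest. In the bin that held Vwf 46.4% of genes were called lower, and the change of Vwf lay below the lower quartile of that bin, -0.96. Gp5 and Gp1bb, at -1.20 and -1.01, lay in a bin with a median of 0.29, of which 12.2% were called lower. After the trend with exon length was taken out, Vwf was at -1.63, Gp5 at -1.40 and Selp at -0.60, each still called lower. Pf4 at -0.84 (adjusted p = 0.005173 by edgeR) and Treml1 at -1.04 (adjusted p = 0.02862) were then also called lower. With Gp1bb, which has the uncertainty given above, this made 6 of the 9 genes (8 tested) lower and 0 higher. Among the 15314 genes in that fit the shares were 15.3% and 8.18%. Itga2b at -0.11 (adjusted p = 0.1388) was not below the threshold on p. The part of length in the unadjusted differences was not tested further.

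**Figure D3:**
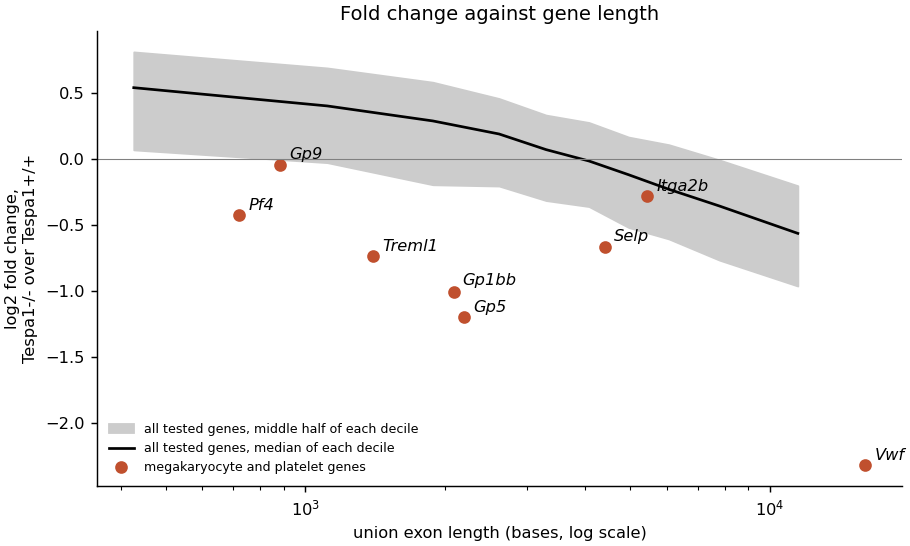
Log2 fold change against exon length in bases on a log axis. The black line and grey band are the median and interquartile range of all tested genes in each bin of length, drawn at its median length, and the red points are the 8 genes. Vwf lies past the long end of the band and below the lower quartile of its own bin. Pf4 lies below the band at the short end, and Itga2b inside it.

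The other genes of platelet biology were taken from lists of 95 genes in all. Of these, 84 were tested, 35 (41.7%) were called lower and 4 (4.76%) higher, with a median log2 fold change of -0.48. Over all tested genes 19.2% were called lower and 14.0% higher, which is also the background of the lists below. The trend with gene length was not taken out of these list counts. Since the lists were chosen with results of these data known, these counts are descriptions.

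Among 21 platelet receptors, 16 were tested, 10 were called lower and 0 higher, with a median of -0.76. Tbxa2r, the thromboxane receptor, fell by 1.96 on the log2 scale. The platelet receptors Clec1b and P2ry12 had at most 8 and 5 counts in any library and were not tested. In the collagen receptor pathway, 1 of 10 tested genes was called lower, the kinase Fyn at -1.09, and 0 higher. Syk, the kinase downstream of the receptor, had a log2 fold change of -0.39 and Lyn one of 0.18, both under the fold of 1.5.

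Granule and secretion genes moved in both directions, with 8 lower and 3 higher of 22 tested and a median of -0.21. Mmrn1, the α-granule protein multimerin, fell by 2.49 on the log2 scale, and Angpt1, a ligand of the receptor Tek that stem cells also make, fell by 2.23. Clu, the granule chaperone clusterin, rose by 2.08 and Srgn, the proteoglycan serglycin of many blood cells, by 0.76. Of the cytoskeletal genes and platelet enzymes, 9 of 17 tested were lower and 1 higher, with a median of -0.60. The largest falls were Cavin2 at -2.18 and Plek, the kinase substrate pleckstrin, at -1.63, and the rise was Tuba4a, an α-tubulin, at 0.60. Tubb1, the β-tubulin of the platelet ring, had 5, 11 and 6 counts in Tespa1+/+ LSKs against 0, 0 and 0 in Tespa1-/- LSKs and was not tested. Myl9 and Alox12 were also below the filter.

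Of 18 megakaryocyte transcription factors, all tested, 6 were called lower and 0 higher, with a median of -0.53. Gata1 fell from 13.9 ± 1.08 to 7.73 ± 0.903 CPM (SD, n = 3 each), by 0.84 on the log2 scale (SE 0.11, adjusted p = 5.362e-04 by edgeR). The largest falls on this list were Mef2c at -1.41 and Meis1 at -1.29, which act in lymphoid and stem cells too. Fli1 was at 123 ± 2.47 and 126 ± 5.10 CPM, with a log2 fold change of 0.03 and a 95% confidence interval of -0.07 to 0.13 (adjusted p = 0.5514 by edgeR). Runx1 had a log2 fold change of -0.53 (SE 0.09, adjusted p = 0.001313 by edgeR), under the fold of 1.5. Nfe2, a factor of late megakaryocytes, varied within both groups, at 91.7, 45.5 and 97.6 CPM and 92.9, 94.4 and 30.6 CPM, and its log2 fold change of -0.09 had a 95% confidence interval of -1.14 to 0.96.

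**Figure D4:**
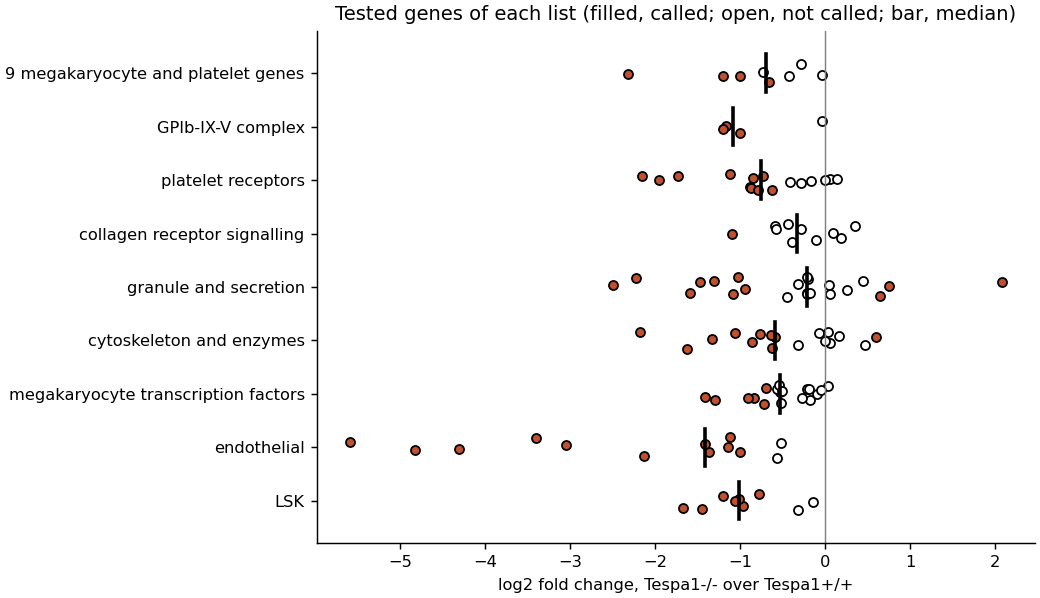
Log2 fold change of every tested gene in each list, filled where called and open where not, with the median as a bar. The median is -0.70 for the 9 genes (8 tested), -0.76 for platelet receptors, -0.21 for granule and secretion genes and -1.41 for endothelial markers.

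The libraries were checked against markers of the labelled fraction and of other cells. Of 9 LSK markers, 7 were called lower in Tespa1-/- LSKs and 0 higher, among them Kit at -0.97 and Slamf1 (CD150) at -1.45. Ly6a, the gene of the sort marker Sca-1, was not called (-0.32, adjusted p = 0.1089 by edgeR), and its groups overlapped. The summed LSK level was 1268 to 1297 CPM against 729 to 748 CPM. Of 14 neutrophil markers 12 were higher and 0 lower, and their sum went from 9501 to 10203 CPM to 15497 to 15943 CPM. Most of that sum came from Mpo (mean 7524 and 10501 CPM, not called), Elane (1290 and 2573 CPM) and Prtn3 (1026.5 and 2098 CPM). Ngp went from 0.252 to 72.0 CPM and Ltf from 0.173 to 48.7 CPM, as group means. Erythroid markers moved both ways, with 5 higher and 8 lower of 15 tested. Lower calls were also made for 4 of 8 mast cell and basophil, 5 of 7 B cell and 3 of 3 tested T cell markers, with 0 higher. Kit is on both the LSK and the mast cell list and is counted in each. Of 7 monocyte and macrophage markers, 1 was higher, Ly6c2 at 0.88 on the log2 scale, and 2 lower. For the depletion antibodies 4 genes were listed, Cd3e, Itgam, Ly6g and Ptprc, and Ter-119 had no gene on that list. Of these 4, 2 were tested and 0 called (0 higher and 1 lower at an unadjusted p under 0.05). They therefore do not cover all the antigens of the depletion. Ly6g, below the filter, had counts of 0, 0 and 0 in Tespa1+/+ against 7, 8 and 4 in Tespa1-/- libraries. Cd3e, also below the filter, had 8, 7 and 4 against 0, 0 and 0. Each list with 0 higher calls by edgeR also had 0 by DESeq2. At an unadjusted p under 0.05, 0 genes were higher among the platelet receptors, transcription factors, endothelial, LSK and T cell markers, and 3 of the collagen pathway, 2 of the mast cell and basophil and 1 of the B cell list were. The part of these marker differences in the changes of the megakaryocyte and platelet genes was not tested.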

How the data were processed

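RNA-seq was made from LSKs of irradiated Tespa1+/+ and Tespa1-/- mice (3 libraries each, stranded poly-A kit, paired-end). The authors deposited 1 table with a raw count and an FPKM value per gene and library. The submitters' processing notes name CASAVA 1.8, HISAT2, StringTie, edgeR and GRCm38. Whether counting used the strand is not given in the sources used here. The deposited counts were filtered with filterByExpr, scaled by TMM and tested with edgeR 4.0.16 (glmQLFit and glmQLFTest, no covariates, R 4.3.3). The deposited FPKM values hold the same reads over a gene length and were used for levels and for 1 alternative test with limma 3.58.1 (log2 with a pseudocount of 1 or 0.1, genes with FPKM of at least 1 in 3 libraries). DESeq2 1.42.0 was another alternative. Other settings were other scaling and filters, a test against the fold of 1.5, a replicate block, a loess correction for gene length (span 0.5) and leaving out each library. The fits were tested on simulated data.

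Of the 55487 genes, 55141 were found in GENCODE M21 (GRCm38), 54784 with identical coordinates. Exon lengths are the union of a gene's annotated exons. Counts of 3 or fewer were taken as the floor. Floors and intervals for counts cover counting error only, since the reads carry no molecular identifiers and several can stem from 1 molecule. The genes named are the 9 genes, Tespa1, Gp1ba, Itgb3, Ppbp, Gata1, Fli1, Runx1, Nfe2, Fcer1g and, of each pathway list, the 2 called genes with the largest rise and the 2 with the largest fall; 1 further gene of this rule is not reported here. Markers and other genes named for their counts were chosen after their values were seen, as were the genes that overlap Gp1bb. The 9 genes and all lists were chosen with earlier results of these data known.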

Additional observations from a re-analysis of the deposited data

How the results depend on the processing

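Over at most 18 alternative settings per gene there were 139 fits of the 8 tested genes. Of these, 118 gave the same sign and the same side of the threshold, 10 crossed to a passing p and 10 lost it. The exception in direction was Gp9, at 0.16 without Tespa1+/+ replicate 1 (-0.21 to 0.16 over the 6 libraries left out in turn). Vwf and Gp5 were called lower in every setting, and Selp in all but the test against the fold of 1.5. That test (glmTreat) called 2 of the 9 genes lower, and 1807 genes lower and 1020 higher over the whole table. limma on log2(FPKM + 1) called 1626 genes lower and 1070 higher, and with a pseudocount of 0.1 it called 1365 higher. The length corrections left 2435 genes lower and 1402 higher with the lengths implied by the FPKM, and 2346 lower and 1253 higher with exon lengths. With the implied lengths 5 of the 9 genes were lower, Pf4 at -0.71 (adjusted p = 0.01061) joining, and with exon lengths 6. Leaving out 1 library at a time gave 3 to 4 of the 9 genes lower, 2716 to 2885 genes lower and 2078 to 2246 higher.

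No label pairs the same-numbered libraries of the 2 genotypes. The correlations of their deviations from the group means were 0.05, 0.01 and 0.06, which cannot show or exclude a pairing with so few libraries. Each was the largest in its row, which is a hint from the data and not the design. With the replicate block 5 of the 9 genes were called lower, Treml1 joining at -0.73 (adjusted p = 0.03853), and Pf4 was at -0.43 (adjusted p = 0.04316, under the fold of 1.5). The block left 2871 genes lower and 2101 higher. Depth limits Gp1bb, Treml1, Gp9 and Pf4 most, with counts of 8 to 102 per library, and Gp6 was at 0.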
